A study of Caenorhabditis elegans with 6 samples.

Results

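The *acs* and *acl* genes of *C. elegans* were taken as all rows of the expression table whose gene name begins with acs- or acl- followed by a number. This gave 34 of the 28641 genes, 21 *acs* and 13 *acl*, and all 34 passed the filter on low values (a mean of at least 1 FPKM over the 6 libraries). Expression was measured by RNA sequencing of whole worms of 2 genotypes, WT (Bristol N2) and *alh-4(-)*, which carries the CRISPR-made deletion allele *hj221* of the aldehyde dehydrogenase gene *alh-4*. Worms of both genotypes were synchronised, fed *E. coli* OP50, given no treatment and harvested at the L4 larval stage after growth at 20 °C. There were 3 biological replicates of each genotype and 1 Smart-seq2 library for each replicate. Each replicate was a lysate of pooled whole worms, and the mutant is represented by this allele alone.

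Acyl-CoA synthetases use ATP to join a fatty acid to coenzyme A, and most pathways that burn, store or modify fatty acids accept only the activated acyl-CoA. The acyltransferases of the *acl* family move the acyl group from acyl-CoA to a glycerol backbone or to a lysolipid, which builds and remodels phospholipids and triacylglycerol. Fatty aldehyde dehydrogenases such as ALH-4 are a source of the free fatty acids that acyl-CoA synthetases use.

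The values are FPKM, fragments scaled by transcript length and by library size, so levels can be compared between genes. Genes listed above 0 numbered from 17623 to 22670 per library, and the replicate 1 library of each genotype had the fewest. WT libraries 1, 2 and 3 had *alh-4* levels of 352, 291 and 336 FPKM and the *alh-4(-)* libraries of 33.7, 24.6 and 35.2 FPKM, so no library went against its label. Markers of intestine, hypodermis, body wall muscle, neurons, germline and pharynx were all detected, and none of the 24 was at 0 in every library. In whole worms, fewer cells of a type and less RNA per cell cannot be told apart.

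The *acs* family was spread over a wide range of levels. *acs-13* was the most abundant, at 1248, 847 and 1258 FPKM in WT worms, and ranked 353 of all 28641 genes by mean level. It was followed by *acs-14* (rank 663) and *acs-1* (rank 1581), an enzyme known to activate branched-chain fatty acids. The lowest member was *acs-21*, from 1.49 to 5.75 FPKM over the 6 libraries. In the *acl* family a single gene dominated. *acl-6*, which encodes a mitochondrial glycerol-3-phosphate acyltransferase, ranked 90 of all genes and made up 69.7%, 70.3% and 72.9% of the summed *acl* FPKM in the 3 WT libraries. *acl-9* (rank 748) and *acl-5* (rank 1996) came next, and *acl-11* was the lowest, from 0.870 to 1.64 FPKM. The median coefficient of variation (SD divided by mean) in WT worms was 23.7% over the *acs* genes and 16.5% over the *acl* genes, beside 27.8% over all tested genes.

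**Figure D1:**
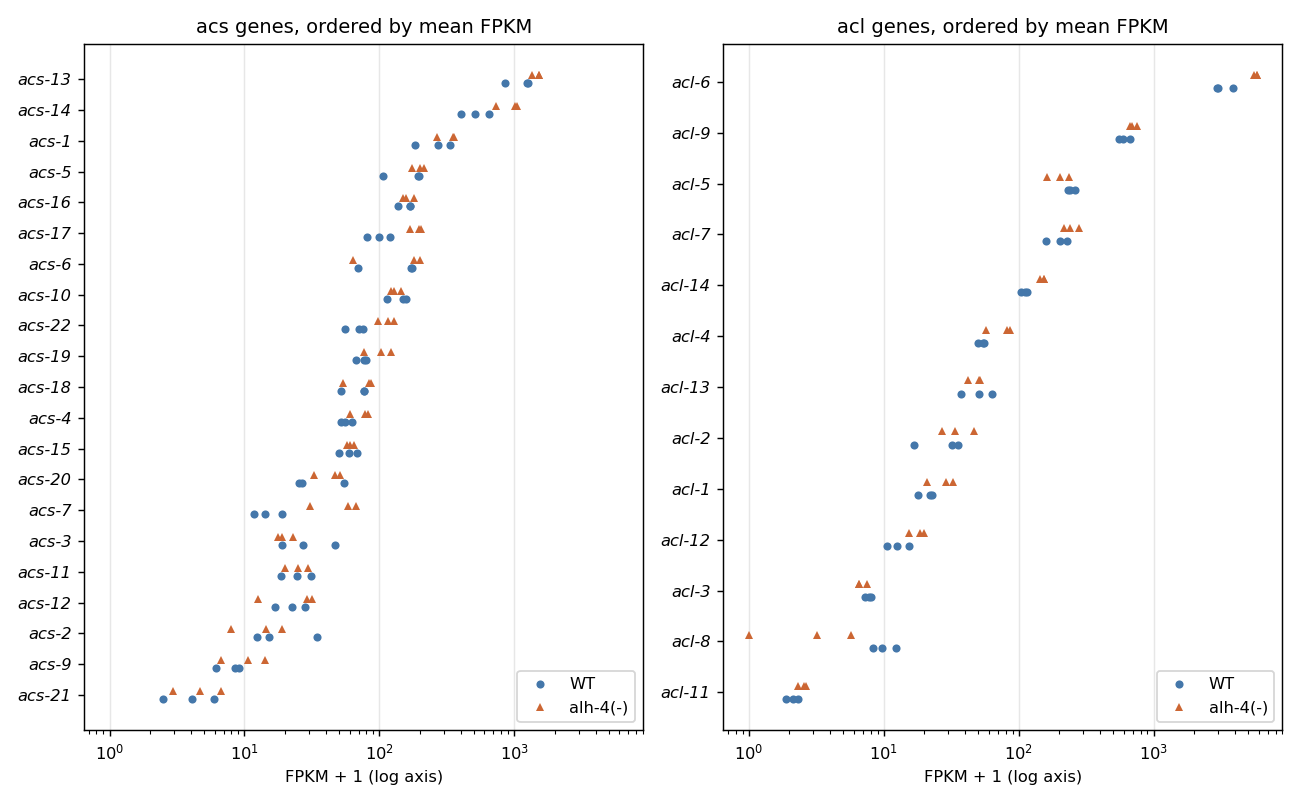
FPKM + 1 of each *acs* gene (left) and *acl* gene (right) on a log axis, with genes ordered by their mean over the 6 libraries. Circles are the 3 WT libraries and triangles the 3 *alh-4(-)* libraries of each gene. The *acl-6* points lie far to the right of all other *acl* genes, with WT from 2939 to 3896 FPKM and *alh-4(-)* from 5580 to 5834 FPKM.

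Expression in *alh-4(-)* worms was then compared with that in WT worms. Most members were higher in the mutant, by small amounts. The log2 fold change, taken on log2(FPKM + 1), was above 0 for 18 of 21 *acs* genes (85.7%) and 9 of 13 *acl* genes (69.2%), beside 58.0% of all tested genes. The median log2 fold change was 0.30 for *acs*, 0.33 for *acl* and 0.07 over all tested genes. Without *alh-4(-)* replicate 3 the *acs* median was 0.11, beside -0.003 over all tested genes in the same fit.

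None of the 34 members had an adjusted p under 0.05 (limma, Benjamini-Hochberg over 16225 tested genes), a threshold passed by 0.142% of all tested genes. At an unadjusted p under 0.05 from limma, 7 members differed. The 6 that were higher in *alh-4(-)* worms were *acs-7*, *acs-14*, *acs-17*, *acs-22*, *acl-6* and *acl-14*, a share of 17.6% beside 3.12% of all tested genes. The only member that was lower, *acl-8*, is a share of 2.94% beside 1.84% of all tested genes. A fold change over 2 together with an unadjusted p under 0.05 was found for *acs-7* and *acl-8*, or 5.88% of members beside 2.92% of all tested genes. Values of the genotypes did not overlap, with the mutant higher, for 11 members (32.4%, beside 5.97% of all tested genes). They did not overlap with the mutant lower for 1 member (2.94%, beside 3.25%). With array quality weights, a version of limma that gives less weight to libraries with more scatter, 1 member (*acs-7*, 2.94%) had an adjusted p under 0.05, as did 0.561% of all tested genes under the same setting.

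**Figure D2:**
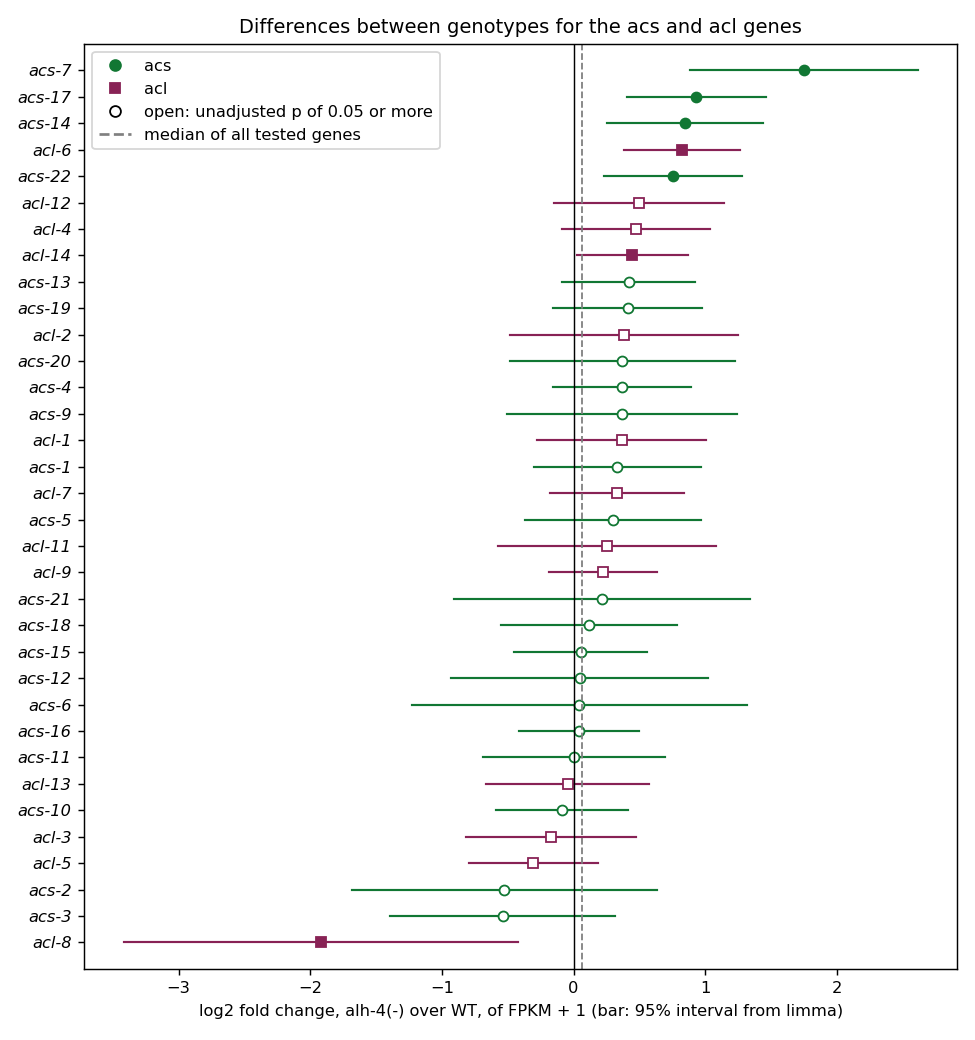
Log2 fold change of FPKM + 1, *alh-4(-)* over WT, for the 34 genes, with 95% intervals from limma as bars. Circles are *acs* and squares *acl* genes, open symbols have an unadjusted p of 0.05 or more, and the dashed line is the median of all tested genes (0.07). *acs-7* is at the top, at 1.75, and *acl-8* at the bottom, at -1.92.

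P-values from limma given for single genes were unadjusted unless called adjusted, and the two-sided exact permutation test over 3 against 3 libraries cannot give a p below 0.1. Among the *acs* genes, *acs-7* differed most. This gene is known for activating the side chains of ascarosides, the small-molecule pheromones that worms make through peroxisomal β-oxidation. Its level was 10.7, 13.2 and 17.9 FPKM in the WT libraries, against 29.5, 57.1 and 66.0 FPKM in the mutant libraries, so even the lowest mutant library lay above the highest WT library. The means were 13.9 ± 3.65 and 50.9 ± 19.02 FPKM (SD, n = 3 each), a ratio of 3.66. On the log2 scale the difference was 1.75, with a standard error of 0.37 and a 95% interval from 0.88 to 2.62 (limma p = 0.00193, adjusted p = 0.311, exact permutation p = 0.1). Its unadjusted p stayed under 0.05 in each of the 15 alternative analyses. The adjusted p ran from 0.0202 with array quality weights to 0.939. Replicate 1 of *alh-4(-)* was the lowest of the mutant libraries, and without both replicate 1 libraries the log2 fold change was 1.93. In the WBcel235 annotation *acs-7* (WBGene00007228) lies on the plus strand of chromosome II from 9292017 to 9294033 and shares 9 exonic bases with C01G6.9.

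*acs-17* is a member of the KEGG category 'peroxisome'. Its WT values were 98.3, 119.4 and 79.5 FPKM, and its *alh-4(-)* values were 167, 201 and 196 FPKM, with no overlap. The means were 99.1 ± 20.0 and 188 ± 18.6 FPKM (SD, n = 3 each), and the log2 fold change was 0.93 (standard error 0.22, limma p = 0.00393, adjusted p = 0.442, exact permutation p = 0.1). All 15 alternatives kept the unadjusted p under 0.05. The gene (WBGene00016716, chromosome X, 5937506 to 5944510, minus strand, WBcel235) shares 109 exonic bases with C46F4.3. Smart-seq2 libraries do not mark strand, so reads from shared bases cannot be assigned to either gene with certainty.

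*acs-14*, the second most abundant *acs* gene, had 509, 399 and 644 FPKM in the WT libraries, against 724, 1003 and 1050 FPKM in the mutant libraries. All mutant libraries were above all WT libraries. The means were 517 ± 123 and 926 ± 176 FPKM (SD, n = 3 each), with a log2 fold change of 0.85 (standard error 0.25, limma p = 0.0115, adjusted p = 0.632, exact permutation p = 0.1). It shares no exonic bases with another protein-coding gene (WBGene00008669, chromosome V, 9508132 to 9510377, WBcel235). In absolute level this was the largest difference of any *acs* gene, 408 FPKM, against 356 FPKM for *acs-13*. *acs-14* took 16.1%, 15.4% and 18.6% of the summed *acs* FPKM of the WT libraries, against 19.4%, 23.7% and 23.5% of that of the mutant libraries.

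*acs-22* and *acs-20* encode relatives of the mammalian fatty acid transport proteins, which couple uptake of fatty acids to their activation. ACS-22 acts together with the triacylglycerol-synthesising enzyme DGAT-2 where the endoplasmic reticulum meets lipid droplets, and ACS-20 is needed for the barrier function of the cuticle. *acs-22* was at 70.1, 54.7 and 74.1 FPKM in the WT libraries, against 96.8, 114 and 126 FPKM in the mutant libraries, with no overlap. The log2 fold change was 0.76 (standard error 0.22, limma p = 0.0110, adjusted p = 0.626, exact permutation p = 0.1). Leaving out *alh-4(-)* replicate 3 gave a limma p of 0.0514. The gene (WBGene00017012, chromosome X, 8931179 to 8939263, plus strand, WBcel235) shares 44 exonic bases with *dylt-2*. *acs-20* had 25.6, 53.2 and 24.3 FPKM in the WT libraries, against 31.9, 46.1 and 50.1 FPKM in the mutant libraries. Here the genotypes overlapped, and WT replicate 2 was the highest of all 6 libraries (log2 fold change 0.37, standard error 0.36, limma p = 0.338, exact permutation p = 0.4). Without that library the limma p was 0.0481, and it reached 0.673 with another library left out.

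**Figure D3:**
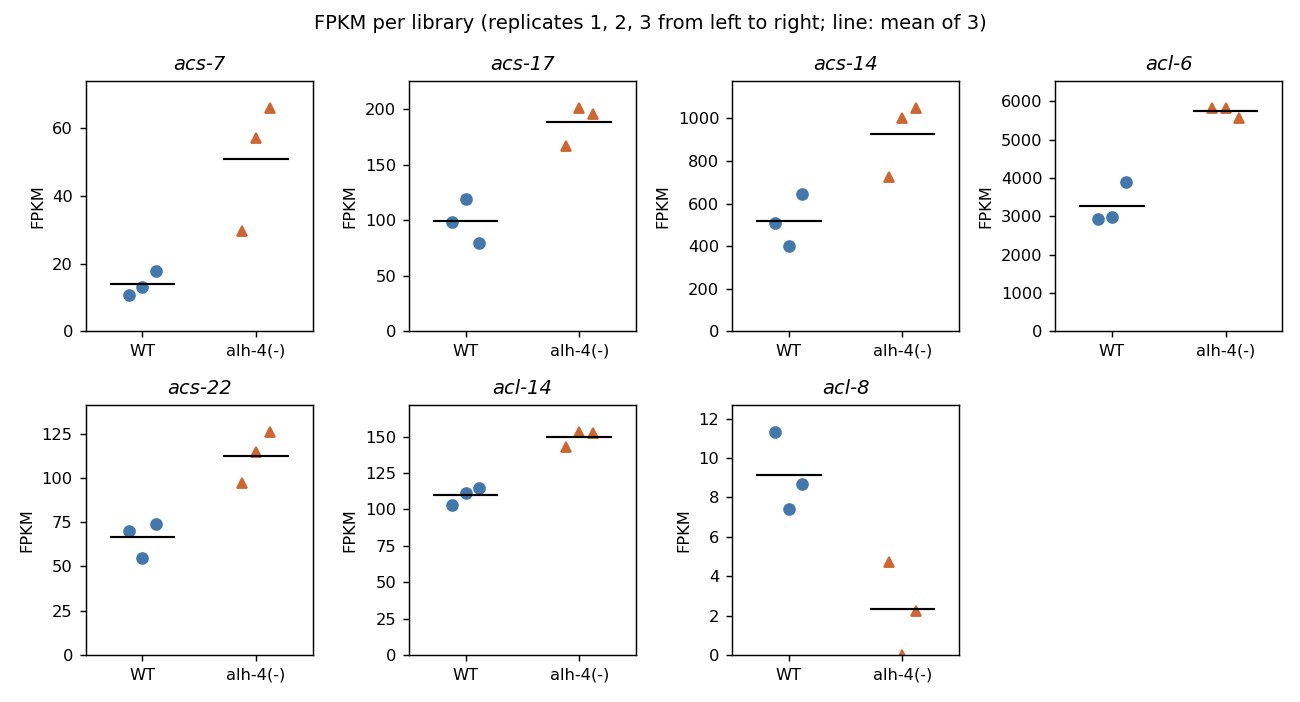
FPKM in each library for the 7 genes with an unadjusted p under 0.05 from limma. Circles are WT and triangles *alh-4(-)*, with replicates 1, 2 and 3 from left to right, and the line is the mean of 3. The genotypes do not overlap in any panel, and *acl-8* is the one gene that is lower in the mutant, with 1 library at 0.

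The most abundant *acs* gene, *acs-13*, also had no overlap between genotypes, at 1248, 847 and 1258 FPKM in the WT libraries, against 1533, 1354 and 1533 FPKM in the mutant libraries. Its log2 fold change was 0.42 (standard error 0.22, limma p = 0.0914, exact permutation p = 0.1). The gene shares 195 exonic bases with Y65B4BL.7. *acs-1* was at 272, 184 and 333 FPKM in the WT libraries, against 266, 355 and 352 FPKM in the mutant libraries, with a log2 fold change of 0.33 (standard error 0.27, limma p = 0.257, exact permutation p = 0.3), and its genotypes overlapped.

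*acs-2* and *acs-3* had lower means in the mutant, unlike most of the family, and did not pass the test. *acs-2* encodes a mitochondrial acyl-CoA synthetase and is known as a fasting-induced target of NHR-49. Its values were 33.3, 14.3 and 11.4 FPKM in the WT libraries, against 13.4, 6.96 and 17.9 FPKM in the mutant libraries, with a log2 fold change of -0.53 (standard error 0.49, limma p = 0.319, exact permutation p = 0.5). *acs-3*, known for a role in fat uptake and storage, was at 45.5, 26.0 and 18.03 FPKM in the WT libraries, against 16.8, 18.1 and 21.9 FPKM in the mutant libraries. WT replicate 1 was the highest library for both genes. The log2 fold change of *acs-3* was -0.54 (standard error 0.36, limma p = 0.180, exact permutation p = 0.3). With 1 library left out its limma p ran from 0.0493 (without WT replicate 3) to 0.571. In those fits the log2 fold change ran from -0.84 to -0.19 for *acs-3* and from -0.82 to -0.09 for *acs-2*. When both replicate 1 libraries were left out, it was -0.12 for *acs-3* and -0.17 for *acs-2*. With all 6 libraries, *acs-2*, *acs-3* and *acs-10* (-0.09) were the only *acs* genes with a log2 fold change below 0.

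The 9 *acs* genes of the KEGG category 'peroxisome' (*acs-2*, *acs-3*, *acs-4*, *acs-5*, *acs-13*, *acs-15*, *acs-16*, *acs-17* and *acs-18*) included both of these. Of the 9, 7 had a log2 fold change above 0 (77.8%, beside 58.0% of all tested genes), with a median of 0.12 beside 0.07. Only *acs-17* had an unadjusted p under 0.05 (11.1% of the 9, beside 3.12% of all tested genes higher at that p). *acs-15* and *acs-16* differed little, with log2 fold changes of 0.05 and 0.04 and 95% intervals from limma of -0.46 to 0.56 and -0.41 to 0.50. *acs-4* and *acs-5* were at 0.37 and 0.30, and *acs-18* at 0.12. The study had named this category from the same libraries, so it is not independent of them.

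Among the remaining *acs* genes, *acs-19*, a relative of acetyl-CoA synthetase, was at 66.0, 78.0 and 76.4 FPKM in the WT libraries, against 75.6, 102 and 121 FPKM in the mutant libraries (log2 fold change 0.41, standard error 0.24, limma p = 0.129, exact permutation p = 0.3). With 1 library left out its limma p ran from 0.0311 (without *alh-4(-)* replicate 1) to 0.386. *acs-9* and *acs-21* were low and had log2 fold changes of 0.37 and 0.21. *acs-11* and *acs-12* were at 0.00 and 0.05. *acs-6* varied with the replicate number rather than with the genotype. Its values were 68.5, 171 and 172 FPKM in the WT libraries, against 62.4, 198 and 179 FPKM in the mutant libraries, so that replicate 1 was the low library in both genotypes and the log2 fold change was 0.04.

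In the *acl* family the first acylation step, the transfer of a fatty acid to glycerol-3-phosphate or to dihydroxyacetone phosphate, is carried out by ACL-4, ACL-5, ACL-6 and ACL-7. *acl-6* was at 2939, 2987 and 3896 FPKM in the WT libraries, against 5834, 5819 and 5580 FPKM in the mutant libraries. The mutant libraries lay close together and well above the highest WT library, with means of 3274 ± 539 and 5745 ± 143 FPKM (SD, n = 3 each), a ratio of 1.75. The log2 fold change of 0.82 had a standard error of 0.19 (limma p = 0.00291, adjusted p = 0.397, exact permutation p = 0.1). Every alternative analysis left its unadjusted p under 0.05. The gene (WBGene00017261) lies on the plus strand of chromosome V from 5433386 to 5437095 in WBcel235 and shares 12 exonic bases with *snpc-1.3*.

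The other genes of this step had log2 fold changes of either sign, and none passed the test. *acl-4* and *acl-5* encode enzymes of the endoplasmic reticulum that do the same reaction as ACL-6. *acl-4* was at 48.7, 53.6 and 54.6 FPKM in the WT libraries, against 55.8, 80.7 and 85.8 FPKM in the mutant libraries, higher in the mutant without overlap (log2 fold change 0.47, standard error 0.24, limma p = 0.0877, exact permutation p = 0.1). With 1 library left out its limma p ran from 0.0177 (without *alh-4(-)* replicate 1) to 0.266 (without *alh-4(-)* replicate 3). *acl-4* shares 110 exonic bases with F49H12.7. *acl-5* was at 230, 262 and 239 FPKM in the WT libraries, against 161, 202 and 234 FPKM in the mutant libraries. It was lower in the mutant, with 1 mutant library inside the WT range (log2 fold change -0.30, standard error 0.21, limma p = 0.186, exact permutation p = 0.2). *acl-7* encodes the dihydroxyacetone phosphate acyltransferase that starts ether lipid synthesis in peroxisomes. It was at 201, 160 and 226 FPKM in the WT libraries, against 240, 216 and 279 FPKM in the mutant libraries (log2 fold change 0.33, standard error 0.22, limma p = 0.167, exact permutation p = 0.2).

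The summed FPKM of the 13 *acl* genes was 4215, 4249 and 5347 in the WT libraries, against 7232, 7350 and 7174 in the mutant libraries, a ratio of means of 1.58. Of the difference of 2648 FPKM, 2471 FPKM came from *acl-6*. Without *acl-6* the *acl* sum was 1276, 1262 and 1451 FPKM in the WT libraries, against 1397, 1530 and 1595 FPKM in the mutant libraries, and the ratio was 1.13. *acl-6* took 80.7%, 79.2% and 77.8% of the *acl* sum in the mutant libraries, above its share in every WT library. The *acs* sum was 3158, 2585 and 3461 FPKM in the WT libraries, against 3741, 4233 and 4473 FPKM in the mutant libraries, a ratio of 1.352. Of the *acs* difference of 1081 FPKM, 408 FPKM came from *acs-14* and 356 FPKM from *acs-13*. The *acs* ratio did not rest on a single gene: without *acs-14* it was 1.26 and without *acs-13* it was 1.37. These sums over chosen genes were not tested.

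**Figure D4:**
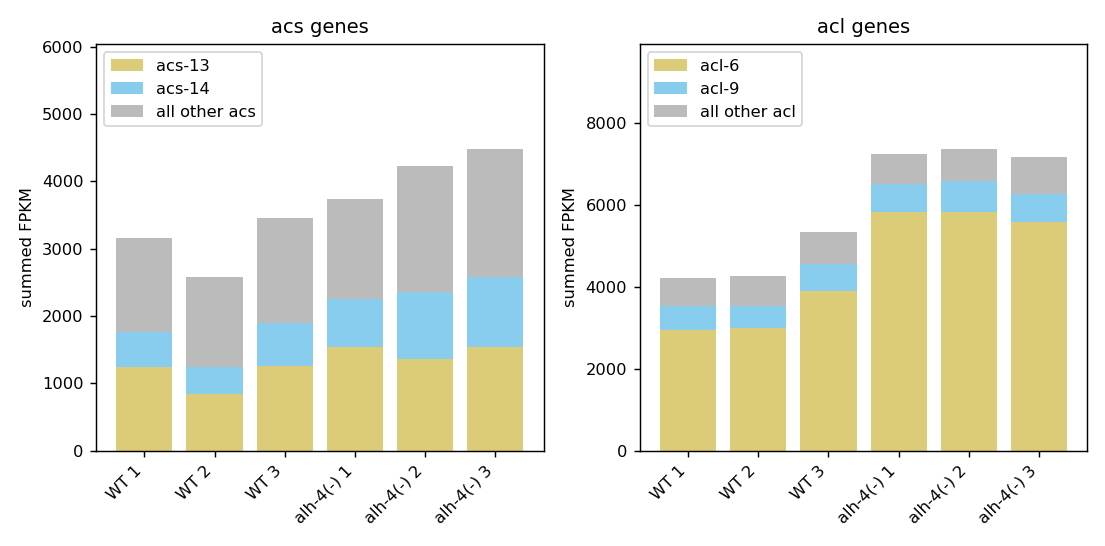
Summed FPKM of the *acs* genes (left) and *acl* genes (right) in each of the 6 libraries, with the 2 most abundant genes of each family and all others stacked. Both totals are higher in each *alh-4(-)* library than in each WT library, and most of the *acl* difference is in the *acl-6* segment.

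*acl-8* and *acl-9* encode acyltransferases that place fatty acids at the sn-1 position of phosphatidylinositol, and these neighbouring genes had log2 fold changes of opposite sign. *acl-8* was at 11.3, 7.39 and 8.67 FPKM in the WT libraries, against 4.73, 0 and 2.22 FPKM in the mutant libraries. It was listed at 0 in *alh-4(-)* replicate 2. None of the 76 ribosomal protein genes was at 0 in any library, but they cannot show whether a gene as low as *acl-8* was missed. The log2 fold change of -1.92 had a standard error of 0.64 (limma p = 0.0188, adjusted p = 0.770, exact permutation p = 0.1). Because of the 0, this value depends on the pseudocount and was -3.13, with a limma p of 0.0581, under a pseudocount of 0.1. Without WT replicate 1 the p was 0.0553, and without WT replicate 3 it was 0.0502. Without *alh-4(-)* replicate 2, the library at 0, the log2 fold change was -1.22, with a limma p of 0.0272.

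*acl-9* was far more abundant, at 591, 549 and 670 FPKM in the WT libraries, against 672, 749 and 692 FPKM in the mutant libraries. Its mutant libraries were all above its WT libraries, by a small margin (log2 fold change 0.23, standard error 0.17, limma p = 0.233, exact permutation p = 0.1). The WBcel235 annotation, a later build than the ce10 assembly used for mapping, places *acl-8* (WBGene00020264) on the plus strand of chromosome V from 6450870 to 6453119. *acl-9* (WBGene00022646) follows on the same strand from 6453226 to 6454965, with 106 bases and no protein-coding gene in between. *acl-8* starts 20950 bases from the start of *alh-4*, which is read in the opposite direction (6427208 to 6429920, minus strand). Of the 7 protein-coding genes between *alh-4* and *acl-8*, 4 were tested and had log2 fold changes from -0.04 to 0.32. Within 60 kb of the *alh-4* start, the 13 tested genes other than *alh-4* and *acl-8* ranged from -0.32 to 0.39. Whether reads of the related *acl-8* and *acl-9* transcripts were shared between them in the deposited values is not given in the sources used here.

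**Figure D5:**
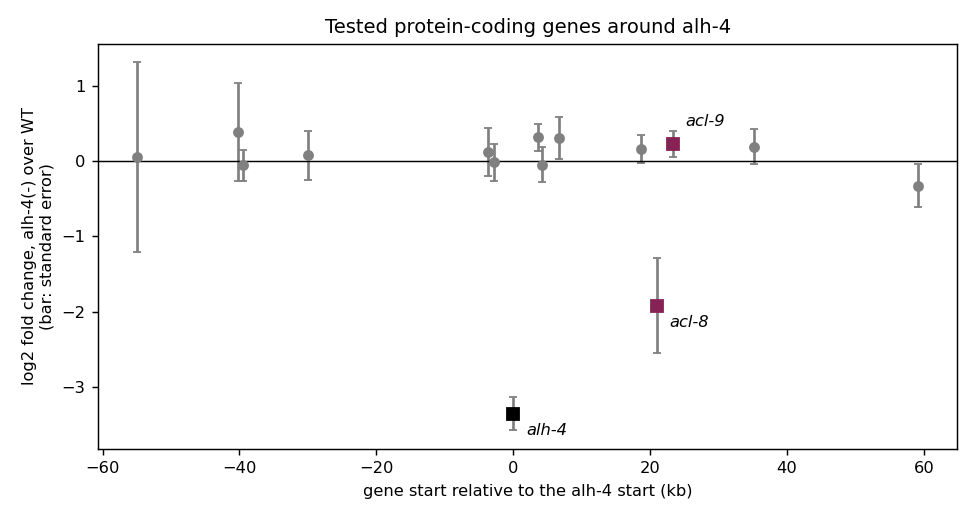
Log2 fold change of FPKM + 1, *alh-4(-)* over WT, of the tested protein-coding genes around *alh-4*, against the distance of each gene start from the *alh-4* start in kb (WBcel235 annotation). Bars are standard errors from limma. *alh-4* is at -3.36 and *acl-8* at -1.92, and the 13 other genes, *acl-9* included, lie between -0.32 and 0.39.

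The second acylation step, from lysophosphatidic acid to phosphatidic acid, is the work of ACL-1 and ACL-2. Both genes were higher in *alh-4(-)* worms by amounts within the spread of the replicates. *acl-1* was at 21.9, 17.05 and 21.1 FPKM in the WT libraries, against 31.7, 19.8 and 27.8 FPKM in the mutant libraries (log2 fold change 0.36, standard error 0.27, limma p = 0.221, exact permutation p = 0.3). *acl-2* had a log2 fold change of 0.39 (standard error 0.37, limma p = 0.329, exact permutation p = 0.5).

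*acl-14* had close replicates in both genotypes. It was at 103, 111 and 115 FPKM in the WT libraries, against 143, 153 and 153 FPKM in the mutant libraries, means of 110 ± 5.95 and 150 ± 5.74 FPKM (SD, n = 3 each). Its log2 fold change of 0.45 (standard error 0.18, limma p = 0.0409, adjusted p = 0.964, exact permutation p = 0.1) kept an unadjusted p under 0.05 in 6 of 15 alternatives. The p was 0.0820 with quantile normalization, 0.0842 with upper quartile scaling and 0.0775 without a trend in eBayes. When WT replicate 1, 2 or 3 or *alh-4(-)* replicate 2 or 3 was left out, the p was no longer under 0.05, with values up to 0.131 over the 6 such fits. The gene (WBGene00019465, chromosome V, 9327141 to 9333631, minus strand, WBcel235) shares 74 exonic bases with the neighbouring *tag-153* and K07B1.4.

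Of the remaining *acl* genes, *acl-12* and *acl-11* were higher in *alh-4(-)* worms without overlap and did not pass the test. *acl-12* was at 9.58, 14.4 and 11.6 FPKM in the WT libraries, against 14.4, 17.7 and 19.03 FPKM in the mutant libraries (log2 fold change 0.50, standard error 0.27, limma p = 0.111, exact permutation p = 0.1), and the nearest libraries of the genotypes were at 14.383 and 14.387 FPKM. *acl-11* was at 0.870, 1.13 and 1.299 FPKM in the WT libraries, against 1.31, 1.64 and 1.56 FPKM in the mutant libraries (log2 fold change 0.25, standard error 0.35, limma p = 0.494, exact permutation p = 0.1). *acl-11* shares 170 exonic bases with *mfsd-13.1*. *acl-3*, a relative of the cardiolipin-remodelling enzyme tafazzin, and *acl-13* had log2 fold changes of -0.17 and -0.04.

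Genes that act before and after these enzymes were compared next. Among 14 genes of acyl-CoA supply and handling, 7 had a log2 fold change above 0 (50.0%, beside 58.0% of all tested genes), with a median of 0.05 beside 0.07. Of the 14, 2 were higher at an unadjusted p under 0.05 (14.3%, beside 3.12% of all tested genes). *maa-1*, which encodes a membrane-associated acyl-CoA-binding protein, was at 6.46, 6.52 and 10.1 FPKM in the WT libraries, against 20.6, 17.4 and 16.3 FPKM in the mutant libraries. The mutant values were all higher, and the log2 fold change was 1.16 (standard error 0.29, limma p = 0.00488, adjusted p = 0.490, exact permutation p = 0.1). *cpt-2* encodes the carnitine palmitoyltransferase that re-forms acyl-CoA inside mitochondria. It was at 889, 843 and 1056 FPKM in the WT libraries, against 1242, 1266 and 1361 FPKM in the mutant libraries, again without overlap (log2 fold change 0.48, standard error 0.18, limma p = 0.0290, adjusted p = 0.898, exact permutation p = 0.1), but its p was no longer under 0.05, with values up to 0.105, when WT replicate 1 or 2 or *alh-4(-)* replicate 2 or 3 was left out. It was 0.0768 with upper quartile scaling and 0.0734 without a trend in eBayes. *cpt-1*, whose product makes the acylcarnitine on the outer side, was nearly level, at 692, 685 and 648 FPKM and 681, 653 and 654 FPKM. Its log2 fold change was -0.03, with a 95% interval from limma of -0.40 to 0.35.

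Among 20 genes of triacylglycerol and phospholipid synthesis, 13 (65.0%) were above 0, beside 58.0% of all tested genes, with a median log2 fold change of 0.12. At an unadjusted p under 0.05, 1 was higher (5.0%, beside 3.12%) and 1 lower (5.0%, beside 1.84%). Both encode members of the membrane-bound O-acyltransferase family. *mboa-3* was at 261, 223 and 365 FPKM in the WT libraries, against 382, 444 and 398 FPKM in the mutant libraries (log2 fold change 0.55, standard error 0.23, limma p = 0.0466, adjusted p = 0.993, exact permutation p = 0.1). *mboa-5* was at 73.9, 48.2 and 51.4 FPKM in the WT libraries, against 17.8, 34.7 and 27.7 FPKM in the mutant libraries (log2 fold change -1.11, standard error 0.32, limma p = 0.00969, adjusted p = 0.596, exact permutation p = 0.1). The genotypes did not overlap for either gene, and the p of *mboa-3* stayed under 0.05 with 1 library left out only when that was WT replicate 3, reaching 0.141 in the other fits. With all 6 libraries its p was 0.0506 with a mean of at least 10 FPKM, 0.0559 with quantile normalization, 0.0684 with upper quartile scaling and 0.0812 without a trend in eBayes. The other genes of ether lipid synthesis, *ads-1* and *fard-1*, had log2 fold changes of 0.37 and 0.54, and like *acl-7* they did not pass the test.

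Tissue markers were measured beside these differences. None of the 23 markers tested had an unadjusted p under 0.05. The 4 hypodermal markers had a median log2 fold change of -0.74, and their summed FPKM ran from 466 to 1130 in WT and from 428 to 540 in *alh-4(-)* libraries. All 4 were below 0, but without both replicate 1 libraries *dpy-7* was at 0.18 and *col-19* at 0.22, and without WT replicate 1 *col-19* was at 0.44. Of the 4 intestinal markers 3 were below 0, of which *elt-2* and *ges-1* were above 0 in some fits with 1 library left out (up to 0.11 and 0.08), with sums of 813 to 1139 in WT and 654 to 1007 FPKM in *alh-4(-)* libraries. Of the 4 germline markers 3 were higher (75.0%, beside 58.0% of all tested genes), 2 of them without overlap (50.0%, beside 5.97%), with sums of 9221 to 15140 and 11152 to 13482 FPKM. Sums of the muscle markers were 7486 to 12646 and 9388 to 10192 FPKM, of the neuronal markers 15.4 to 17.5 and 15.9 to 17.99 FPKM, and of the pharyngeal markers 395 to 1804 and 532 to 980 FPKM. Single hypodermal markers varied widely between replicates. *dpy-7* ran from 2.39 to 41.7 FPKM in WT and from 1.31 to 8.89 FPKM in *alh-4(-)* libraries. *col-19* ran from 185 to 804 FPKM in WT and from 269 to 435 FPKM in *alh-4(-)* libraries. The part of tissue composition, or of stage within L4, in the marker, *acs* and *acl* differences was not tested.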

How the data were processed

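Reads were mapped by the authors to the ce10 assembly, with its iGenome annotation, and the deposited table holds 1 FPKM value per gene and library, without pooling replicates. The submitters' processing notes list bcl2fastq 2.19, Trimmomatic 0.36, HISAT2 2.1.0, SAMtools 1.3 and StringTie 1.3.3. FPKM are already divided by transcript length and mapped fragments. Among genes under 1 FPKM, no ratio between libraries was shared by more than 1.53% of genes, so whole reads could not be recovered, depth is unknown and no counting interval is given.

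Values were transformed to log2(FPKM + 1), which understates the change of low genes. The 16225 genes with a mean of at least 1 FPKM over the 6 libraries were fitted in limma 3.58.1 (R 4.3.3, lmFit, eBayes with a mean-variance trend), two-sided, with Benjamini-Hochberg adjustment over all of them. The fold threshold follows the study, whose negative binomial test needs counts and was not run. Single values were also compared by a two-sided exact permutation test on the log2 values. The method was also run on simulated log2 values with independent noise for each gene and library. These hold no shift shared by many genes of a library, so they do not test the method under such shifts. Tables were made with pandas 2.3.3, NumPy 2.4.6 and SciPy 1.17.1 under Python 3.11.15, and plots with Matplotlib 3.10.9.

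Genes described in full were those with an unadjusted p under 0.05, those whose genotypes did not overlap, the 3 most abundant of each family, and partner genes with an unadjusted p under 0.05. Others were named after their values were seen. The members and lists were chosen with earlier results of these data known. All 34 names match a current symbol. Gene positions are those of the WBcel235 annotation, with no conversion between builds. Alternatives were another pseudocount, other filters on low values, a replicate block, array quality weights, no trend in eBayes, quantile and upper quartile scaling, each library left out, and both replicate 1 libraries left out (chosen after seeing the data).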

Additional observations from a re-analysis of the deposited data

How the results depend on the processing

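No direction of the 14 genes described in full among the 34 reversed under any of the 15 alternatives. Of these genes, 11 higher and 1 lower had genotypes without overlap, so leaving out libraries could not reverse them. Among the other members, *acs-6*, *acs-10*, *acs-11*, *acs-12*, *acs-15*, *acs-16*, *acs-18*, *acs-21* and *acl-13* changed sign over the fits with 1 library left out. For *acs-6* the log2 fold change ran from -0.39 to 0.57. Of the 208 values of the 14 genes described in full, 188 kept their side of an unadjusted p of 0.05, 13 lost it and 7 gained it. Members with an unadjusted p under 0.05 numbered 7, and 13 with array quality weights (*acs-4*, *acs-9*, *acs-13*, *acs-19*, *acl-4* and *acl-12* in addition). With 1 library left out they numbered 5 to 9. Members past a fold of 2 and an unadjusted p under 0.05 numbered 2. They were 1 with a pseudocount of 0.1 or a mean of at least 10 FPKM (*acl-8* was lost), 4 without both replicate 1 libraries, and 1 to 4 with 1 library left out (1 without WT replicate 1, 4 without *alh-4(-)* replicate 1). With array quality weights 1 member had an adjusted p under 0.05. The *acs* median ran from 0.11 (without *alh-4(-)* replicate 3) to 0.47 (without *alh-4(-)* replicate 1). All tested genes had medians of -0.003 and 0.24 in those fits. The *acl* median ran from 0.21 (without WT replicate 1) to 0.40 (without WT replicate 3), beside 0.005 and 0.13 over all tested genes.

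Over all tested genes, 23 had an adjusted p under 0.05. The count was 11 with no filter on low values, 36 with quantile normalization, 35 with upper quartile scaling, 91 with array quality weights, and 6 to 25 with 1 library left out (6 without *alh-4(-)* replicate 3). The 473 genes past a fold of 2 and an unadjusted p under 0.05 became 266 with a mean of at least 10 FPKM, 894 with array quality weights, 774 without both replicate 1 libraries, and 363 to 950 with 1 library left out (950 without *alh-4(-)* replicate 1). Higher calls were 250 of the 473, 213 of 490 with upper quartile scaling, 626 of 894 with array quality weights and 747 of 950 without *alh-4(-)* replicate 1. The median log2 fold change of all genes was 0.07, and 0.20, 0.24 and 0.17 with array quality weights, without *alh-4(-)* replicate 1 and without both replicate 1 libraries. The cause of these changes was not tested.

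With a replicate block, 15 genes had an adjusted p under 0.05, 563 passed a fold of 2 and an unadjusted p under 0.05, and 9 members had an unadjusted p under 0.05 (*acl-4* and *acs-13* in addition). After subtraction of the genotype mean, the WT and mutant libraries of replicates 1, 2 and 3 correlated by 0.31, 0.28 and 0.005. WT and mutant libraries with different numbers correlated by -0.31 to 0.17. The labels do not say whether libraries of the same number were prepared together, so the numbers were not taken to pair the samples. As a hint from the data and not the design, 4 of 6 libraries correlated best with their own number. Depth is unknown, so the precision of low genes such as *acl-8*, *acl-11* and *acs-21* cannot be stated beyond the spread of 3 libraries.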

Other observations

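Further rows of the table carry older names of genes that the current RefSeq annotation calls *acs*. C32E8.6, now *acs-24*, was at 5.397, 12.5 and 9.06 FPKM in the WT libraries, against 6.34, 17.6 and 20.8 FPKM in the mutant libraries, with a log2 fold change of 0.59 (standard error 0.50, limma p = 0.275, exact permutation p = 0.4). R09E10.4, now *acs-23* and annotated as a pseudogene, was at 68.3, 121 and 105 FPKM in the WT libraries, against 53.8, 112 and 108 FPKM in the mutant libraries, with a log2 fold change of -0.14 (standard error 0.36, limma p = 0.716, exact permutation p = 0.7). ZK112.6, now *acs-25*, was under the filter on low values and was listed at 0 in both replicate 1 libraries, with no other library above 1.41 FPKM. In each of these 3 rows replicate 1 was the lowest library of its genotype, as it was in both genotypes for 9 of the 21 *acs* and 7 of the 13 *acl* genes and for 6427 of the 16225 tested genes.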
